A study of Mus musculus with 14 samples.

Results

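Ribosome biogenesis genes encode the proteins that make ribosomes, as distinct from the proteins that ribosomes are made of. The 40 described here were chosen by name, as the rows of the count tables that carry their symbols, and all 40 were found among 36335 named entries. They were set by name, with earlier results of these data known. By their known roles they fall into 2 nucleolar chaperones, 4 genes of RNA polymerase I transcription, 3 of the box C/D small nucleolar ribonucleoprotein (snoRNP), 5 of the box H/ACA snoRNP and of snoRNP assembly, 10 of the small subunit processome and 16 of large subunit assembly.

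Ribosomal RNA is transcribed by RNA polymerase I in the nucleolus. It is then methylated by box C/D snoRNPs, turned to pseudouridine at chosen sites by box H/ACA snoRNPs, cut, folded and joined with ribosomal proteins in precursors of the small and the large subunit. The genes for these steps are known as targets of MYC and of growth signalling through the mTOR kinase, and proliferating embryonic stem cells use them heavily.

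All 14 libraries are labelled by title and cell line as E14 mouse embryonic stem cells. The source names of the 2 Mettl3-KO libraries at 8 h read E15 and E16 instead, which the labels do not explain, and the 8 h values and chase slopes of Mettl3-KO rest on these libraries. Both genotypes, WT and Mettl3-KO, were kept for 2 weeks on gelatin in serum and LIF with 200 nM INK128, an mTOR inhibitor that puts these cells into a paused state, so no unpaused cells are among the groups. Mettl3 is the catalytic subunit of the enzyme that writes N6-methyladenosine (m6A) on mRNA. The labels do not say how the knockout was made or whether it is 1 clone. Cells took up 100 µM S4U, a thiolated uridine, for 12 h and were collected 0, 1, 3 and 8 h after a return to medium without it (the chase). Treatment with 10 mM iodoacetamide makes S4U read as C, so T>C conversions mark RNA made during labelling. Mettl3-KO had 2 libraries at every collection time. WT had 2 libraries at 1 h and 2 at 8 h but only 1 at 0 h and 1 at 3 h. The comparison of genotypes addresses RNA level and RNA stability in paused cells that lack Mettl3.

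Total counts in named entries were between 6108102 and 26654217 in 12 libraries, called deep below. They were 49154 in WT 1 h replicate 2 and 602297 in Mettl3-KO 3 h replicate 2. These 2 libraries also stand apart in composition, since 17.7% and 16.9% of their counts lay in genes too sparse to be tested, against at most 0.180% in the deep libraries. In WT 1 h replicate 2 a single count is worth 21.4 CPM (counts scaled to library size with edgeR's TMM factors), so its values for most of the 40 genes rest on a few counts. In Mettl3-KO 3 h replicate 2, Tcof1 stood at 7556 CPM, Wdr43 at 6310.3 and Dkc1 at 4649.5, and none of the other 13 libraries was above 862 for these genes. Every test below was run on all 14 libraries and again on the 12 deep ones. Mettl3 itself was at 23.8 to 78.1 CPM in the 5 deep WT libraries and at 1.23 to 2.42 in the 7 deep Mettl3-KO libraries. The 9 embryonic stem cell markers were all detected and summed to 4656 to 6164 CPM in deep WT and 3652 to 5645 in deep Mettl3-KO libraries. The 5 neural markers summed to 75.9 to 101 CPM in deep WT and to 472 to 743 in deep Mettl3-KO libraries, with none at 0, and the part of this in the genotype differences below was not tested. Summed endoderm markers (6 genes) were at 27.9 to 35.9 CPM in deep WT and 11.7 to 19.8 in deep Mettl3-KO libraries, fibroblast markers (5) at 15.5 to 29.2 and 7.86 to 12.6, mesoderm markers (3) at 3.63 to 10.3 and 5.83 to 9.73, and trophoblast markers (4, with Elf5 at 0) at 11.2 to 21.1 and 5.62 to 12.6. In bulk RNA, fewer cells of a type and less RNA per cell cannot be told apart.

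Of the 40 genes, 34 have an entry in the table of RefSeq promoters on GRCm38.p6, which spans 250 bases before to 50 after a gene's start. Of the 6 genes whose total RNA was higher in Mettl3-KO (described below), 4 hold 1 of the motifs searched within the 100 bases before the start, and these stretches are shown because the genes share that call. Genes without that call hold such motifs there too, with CGGAAG in Wdr12, Gar1, Utp3, Rrp9, Utp20, Nhp2, Heatr1 and Nolc1, and TCTCGCG in Nop14. On either strand, GGAAGTG also lies there in Nip7, Ppan and Wdr43, among others, and ACTACA in Utp15 and Nop14. Shares over all genes are given below for the whole window only, so 4 of 6 has no background beside it. Capitals mark ACTACA followed after any 2 bases by TCCCA, on either strand, in Nop10, Polr1b and Nop16, and in Nop2 the E-box CACGTG followed by the ETS core CGGAAG. The stretches lie at chr2:112261884-112261913 (plus strand), chr2:129100966-129100995 (plus), chr13:54590117-54590146 and chr13:54590075-54590104 (both minus) and chr6:125131822-125131851 (plus).
Nop10: agaaatggACTACATTTCCCAggatgcctt
Polr1b: caagaggaACTACATTTCCCAgaaggccac
Nop16, upstream: ttgctttcTGGGAGTTGTAGTaagtgaatg
Nop16, near the start: ctactaaaACTACATTTCCCAagaatcctt
Nop2: tCACGTGtgttccggtgccgcggcCGGAAG

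This spaced element begins 34 bases before the start used in that table in Nop10 and 22 bases before it in Polr1b and in Nop16. Nop16 holds a further match on the other strand, beginning 64 bases before the start. Over both strands of the whole 300-base window, the spaced element was found in 5 of the 34 genes (Nop16, Nop10, Nop14, Polr1b and Pa2g4), or 14.7%, and in 1.69% of 27025 genes. In Nop14 and Pa2g4 it does not lie wholly within the 100 bases before the start. The E-box was in 4 of 34 (Nop2, Wdr43, Pes1 and Utp20), or 11.8%, against 8.09% of all genes. CGGAAG was in 16 of 34, or 47.1%, against 18.8%, and TCTCGCG in 5 of 34, or 14.7%, against 2.92%. GGAAGTG, which overlaps the ETS core by 5 letters, was in 9 of 34, or 26.5%, against 12.5%, and ACTACA alone, which the longer element contains, in 12 of 34, or 35.3%, against 11.8%. These motifs were chosen after promoters of the 40 genes had been looked at, and a match is a description of letters, not of a bound factor.

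Total RNA of the 40 genes was higher in Mettl3-KO than in WT for 6 genes and lower for none (edgeR's quasi-likelihood test over chase times, Benjamini-Hochberg adjusted p under 0.05 over 14641 genes). The 6 were Mrto4, Nop16, Nop10, Nop2, Polr1b and Ftsj3, with changes between 1.82-fold and 3.18-fold. At an unadjusted p under 0.05, 9 of the 40 differed in either direction, a smaller share than the 34.4% of all genes. DESeq2 called 7 of the 40 higher, against 16.8% of all genes, and 1 lower, against 16.1%. In all, 12.1% of the genes tested were higher and 9.99% lower, so 6 of 40 is close to the background. The median log2 change was 0.19 over the 40 genes and 0.05 over all genes tested, and 30 of the 40 estimates were above 0, as were 52.6% of those of all genes. In the 12 deep libraries 11 of the 40 were higher, against 21.8% of all genes, and 1 was lower, against 19.2%. Those added were Gar1, Rrs1, Fbl, Utp15 and Gnl3 on the higher side and Nop14 on the lower side. Of 4 genes (Mrto4, Nop16, Nop10 and Nop2) every deep Mettl3-KO library lay above every deep WT library, which held for 12.3% of all genes tested.

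**Figure D1:**
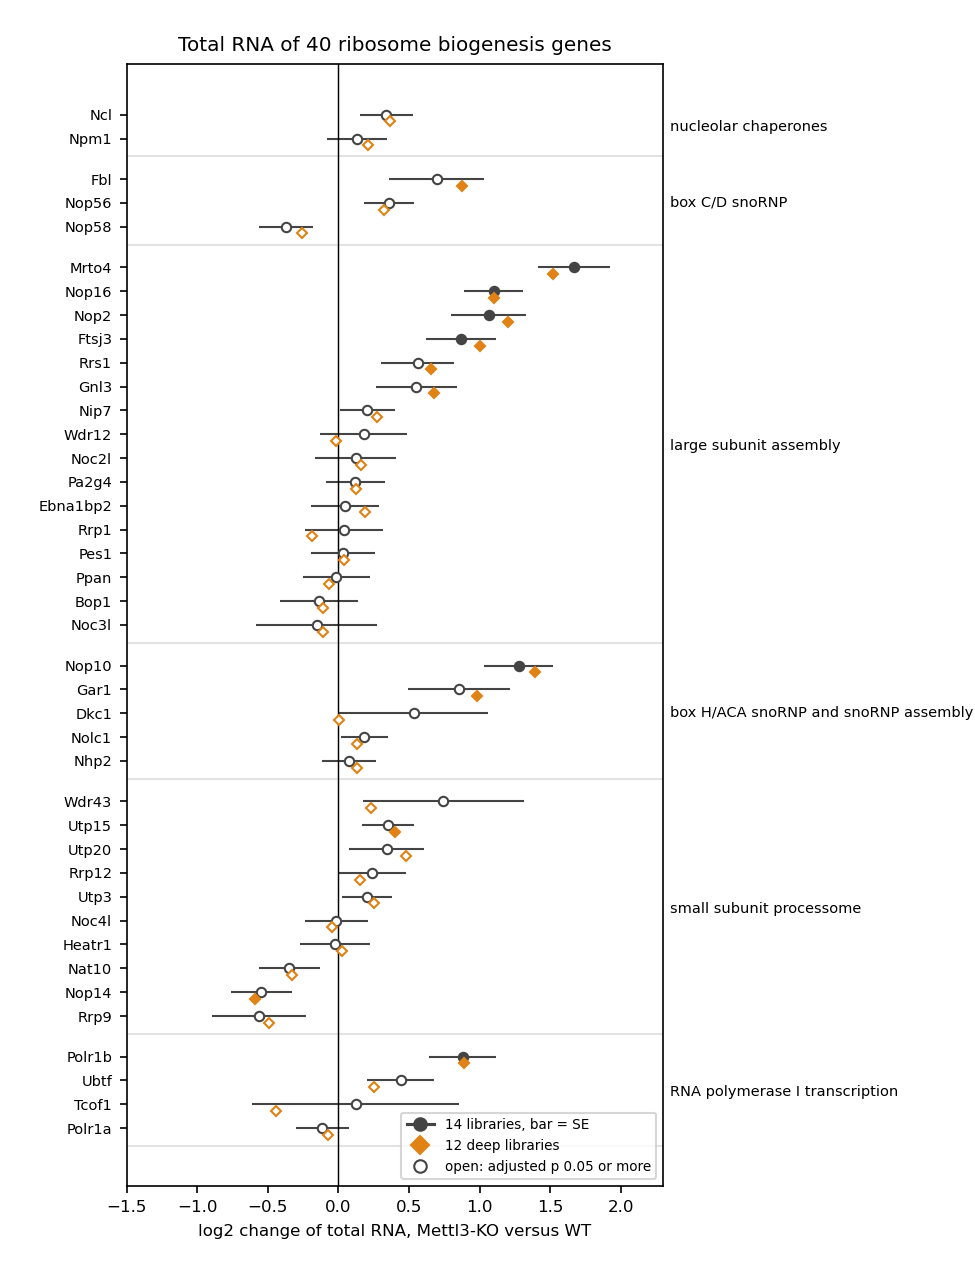
Log2 change of total RNA in Mettl3-KO versus WT (x axis) for the 40 genes (y axis), grouped by role, with SE bars for the fit of 14 libraries (circles) and diamonds for the fit of the 12 deep ones, filled where adjusted p is under 0.05. The filled circles are Mrto4, Nop16, Nop2, Ftsj3, Nop10 and Polr1b, and Wdr43, Dkc1 and Tcof1 have wide bars that come with their values in Mettl3-KO 3 h replicate 2.

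Large subunit assembly, with 16 of the 40 genes, held 4 of the 6. Its median log2 change was 0.15, against 0.19 over the 40. Mrto4, a protein related to the ribosomal stalk protein P0 that joins early large subunit precursors (chromosome 4, 139347440 to 139352576 on GRCm38.p6), stood in WT at 119 CPM at 0 h, 80.3 and 21.4 at 1 h, 62.1 at 3 h, and 124 and 85.5 at 8 h. In Mettl3-KO it stood at 278 and 207 at 0 h, 245 and 318 at 1 h, 248.9 and 327 at 3 h, and 268 and 287 at 8 h. The lowest Mettl3-KO library was above the highest WT library at every time, also with the shallow libraries. The means were 82.0 CPM ± 37.9 (SD, n = 6) in WT and 272 ± 39.4 (SD, n = 8) in Mettl3-KO, a log2 change of 1.67 (SE 0.25, edgeR adjusted p = 0.000458).

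Nop16, an assembly factor of the large subunit, stood in WT at 105 CPM at 0 h, 78.2 and 42.7 at 1 h, 82.7 at 3 h, and 109 and 107 at 8 h. In Mettl3-KO it stood at 129 and 171 at 0 h, 158 and 201 at 1 h, 222 and 135 at 3 h, and 241 and 273 at 8 h. Here too no Mettl3-KO library was as low as the highest WT library. Between genotypes Nop16 differed by a log2 change of 1.0998 (SE 0.21, edgeR adjusted p = 0.00201).

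Nop2, a methyltransferase of large subunit ribosomal RNA, was between 171 and 213 CPM in all 6 WT libraries. In Mettl3-KO it was at 273 and 284 CPM at 0 h, 251 and 376 at 1 h, 523 and 186 at 3 h, and 670.3 and 704 at 8 h. The shallow 3 h library, at 186, was the only Mettl3-KO library within the WT range. Nop2 differed by a log2 change of 1.07 (SE 0.27, edgeR adjusted p = 0.0105). Ftsj3, a factor of pre-ribosomal RNA processing, was between 179 and 309 CPM in WT. In Mettl3-KO it was at 352 and 319 CPM at 0 h, 304 and 506 at 1 h, 420.5 and 174 at 3 h, and 566 and 722 at 8 h. Its groups overlap through Mettl3-KO 1 h replicate 1 and the shallow 3 h library. Its log2 change was 0.87 (SE 0.25, edgeR adjusted p = 0.0211), and the call was lost when any of WT 0 h replicate 1, Mettl3-KO 1 h replicate 2, WT 8 h replicate 1 or Mettl3-KO 8 h replicate 2 was left out (adjusted p = 0.0523 to 0.0589 in edgeR).

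The other 12 genes of large subunit assembly did not pass the test in all 14 libraries. Rrs1 and Gnl3 (nucleostemin, a nucleolar GTP-binding protein) had log2 changes of 0.66 (edgeR adjusted p = 0.00801) and 0.68 (edgeR adjusted p = 0.00828) in the deep libraries. Pa2g4, a growth-regulated protein bound to pre-ribosomes, was at 515 CPM in WT at 0 h, 565 and 299 at 1 h, 496 at 3 h, and 563 and 502 at 8 h. In Mettl3-KO it was at 478 and 454 CPM at 0 h, 499.99 and 569.8 at 1 h, 682 and 318 at 3 h, and 602 and 659.7 at 8 h, and its log2 change of 0.12 (SE 0.21, edgeR adjusted p = 0.742) lies within the spread of the libraries. The members of the PeBoW complex, Pes1, Bop1 and Wdr12, which process the precursor of large subunit RNA, had log2 changes of 0.03, -0.14 and 0.18, all with SE of at least 0.23. For Nip7, Noc2l, Ebna1bp2, Rrp1, Ppan and Noc3l the estimates were between -0.15 and 0.21.

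**Figure D2:**
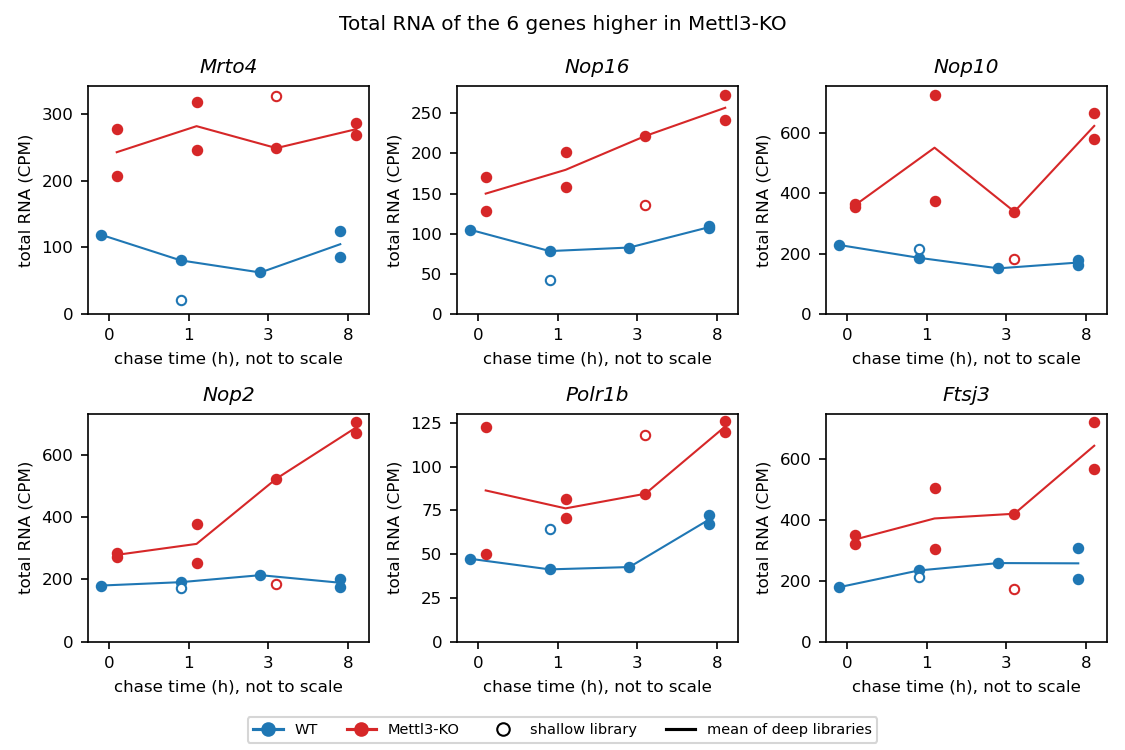
Total RNA in CPM (y axis, from 0) by chase time in hours (x axis, not to scale) for the 6 genes higher in Mettl3-KO, with 1 point per library, open points for the 2 shallow libraries and lines through the means of the deep libraries. Mrto4 and Nop16 separate the genotypes at all times, and Nop2 in Mettl3-KO runs from 273 and 284 CPM at 0 h to 670.3 and 704 at 8 h while WT stays between 171 and 213.

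Of the box H/ACA snoRNP, Nop10, a core protein of the particle (chromosome 2, 112261926 to 112262898), passed the test. In WT it stood at 229 CPM at 0 h, 186 and 214 at 1 h, 151 at 3 h, and 179.6 and 161 at 8 h. In Mettl3-KO it stood at 356 and 364 CPM at 0 h, 376 and 728 at 1 h, 339 and 183 at 3 h, and 579.7 and 668 at 8 h. All 7 deep Mettl3-KO libraries were above all WT libraries, and the shallow one was not. Nop10 differed by a log2 change of 1.28 (SE 0.25, edgeR adjusted p = 0.00212). Gar1, another core protein, had a log2 change of 0.85 (SE 0.36, edgeR adjusted p = 0.106) in all libraries and of 0.98 (SE 0.35, edgeR adjusted p = 0.0457) in the deep ones. Its values overlapped, since Mettl3-KO 1 h replicate 2 was at 116 CPM and WT 0 h at 194. The third core protein, Nhp2, was at 0.07 (SE 0.19). Dkc1, the pseudouridine synthase of the particle, was at 0.53 (SE 0.53) with its 4649.5 CPM in the shallow library and at 0.01 (SE 0.17) without that library. Nolc1, a chaperone that gathers snoRNPs, ran from 223 to 283 CPM over the deep libraries, the smallest ratio of highest to lowest among the 40 genes (1.27).

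Of the 4 RNA polymerase I genes, Polr1b, the second largest subunit of the enzyme, was higher in Mettl3-KO. It stood in WT at 47.3 CPM at 0 h, 41.3 and 64.1 at 1 h, 42.6 at 3 h, and 72.6 and 67.0 at 8 h. In Mettl3-KO it stood at 49.9 and 123 CPM at 0 h, 81.6 and 70.7 at 1 h, 84.5 and 118 at 3 h, and 126 and 119.9 at 8 h. The groups overlap through Mettl3-KO 0 h replicate 1 and 1 h replicate 2. Polr1b differed by a log2 change of 0.88 (SE 0.24, edgeR adjusted p = 0.016), lost at 0.0506 to 0.0612 without WT 0 h replicate 1, WT 1 h replicate 1 or WT 3 h replicate 1. Polr1a, the largest subunit, was at -0.11 (SE 0.19). Ubtf, the factor that opens ribosomal DNA for transcription, was between 132 and 226 CPM in WT and between 145 and 374 in Mettl3-KO. Its deep Mettl3-KO libraries ran from 145 to 301 CPM, and its log2 change was 0.44 (SE 0.24, edgeR adjusted p = 0.209). Tcof1, a nucleolar cofactor of RNA polymerase I, was at 0.12 (SE 0.73) with the shallow libraries and at -0.45 (SE 0.20, edgeR adjusted p = 0.0875) without them.

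In the box C/D snoRNP, no gene passed in 14 libraries. Nop56 was between 278 and 645 CPM in WT and between 509 and 672 in Mettl3-KO (402 to 645 and 551 to 672 in the deep libraries). Its log2 change was 0.36 (SE 0.18, edgeR adjusted p = 0.17). Its partner Nop58 was between 286 and 491 CPM in WT (286 to 367 in the deep libraries) and between 183 and 324 in Mettl3-KO. The log2 change of Nop58 was -0.37 (SE 0.19, edgeR adjusted p = 0.191). Fbl (fibrillarin), the methyltransferase of the particle, was read at only 8.43 to 42.7 CPM (8.43 to 40.2 in the deep libraries). Its log2 change was 0.88 (SE 0.26, edgeR adjusted p = 0.0109) in the deep libraries.

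Among the 10 small subunit processome genes none passed in 14 libraries, and 5 estimates were above and 5 below 0. Nop14 was between 58.4 and 79.2 CPM in deep WT libraries and between 31.9 and 60.4 in deep Mettl3-KO libraries, at -0.59 (SE 0.17, edgeR adjusted p = 0.0115) in the deep fit. Utp15, which links the processome to RNA polymerase I transcription, was at 0.40 (SE 0.15, edgeR adjusted p = 0.0424) in the same fit. Utp3 stood between 105 and 149.6 CPM in WT (105 to 126 in the deep libraries) and between 119 and 187 in Mettl3-KO. The log2 change of Utp3 was 0.20 (SE 0.18, edgeR adjusted p = 0.455). Wdr43 was at 0.74 (SE 0.57) with its 6310.3 CPM in the shallow library and at 0.23 (SE 0.15) without it.

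The nucleolar chaperones Ncl (nucleolin) and Npm1 (nucleophosmin) had log2 changes of 0.34 (SE 0.19, edgeR adjusted p = 0.216) and 0.13 (SE 0.21, edgeR adjusted p = 0.72). Npm1 stood in WT at 1309 CPM at 0 h, 1043 and 961 at 1 h, 1061 at 3 h, and 779.6 and 869 at 8 h. In Mettl3-KO it stood at 1033 and 963 CPM at 0 h, 1314 and 970.0 at 1 h, 1213 and 654 at 3 h, and 1408 and 1209.6 at 8 h. At 0 h the WT library was above both Mettl3-KO libraries, at 1 h the groups overlap, and at 8 h both Mettl3-KO libraries were above both WT libraries. The 40 genes together made up 10162.5 to 15103 CPM in the deep Mettl3-KO libraries and 9401 to 11074 in the deep WT libraries. At 0 h the WT library, at 10457, lay between those of Mettl3-KO, at 10162.5 and 11070. The highest sums, 14959 and 15103, were those of Mettl3-KO at 8 h. Ncl and Npm1 gave 29.2% to 36.0% of the sum in each deep library.

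A list of 145 other ribosome biogenesis genes held 22 that were higher in Mettl3-KO and 5 that were lower in 14 libraries, against 12.1% and 9.99% of all genes. In the deep ones 49 were higher and 14 lower, against 21.8% and 19.2% of all genes. Their median log2 change was 0.23 in both fits, against 0.05 and 0.03 over all genes. The 3 higher genes with the smallest p were Utp14a (1.04), Pop7 (1.19) and Rcl1 (1.17), and the 3 lower ones were Rpf1 (-1.5045), Riok3 (-0.87) and Polr1h (-0.91), all log2 changes.

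Whether total RNA moved over the chase was tested with a slope per hour for each genotype. In 14 libraries none of the 40 genes passed in WT, in Mettl3-KO or for the difference. In Mettl3-KO the background was 0%, as none of the 14641 genes tested passed (edgeR), with 8 of the 40 and 5.67% of all genes at an unadjusted p under 0.05. At the same unadjusted p there was 1 of the 40 in WT, against 3.53% of all genes, and there were 2 for the difference, against 4.97%. In Mettl3-KO DESeq2 called 4 of the 40 rising, against 1.42% of all genes, and 1 falling, against 2.32%. In WT it called 1 rising, against 0.0751%. For the difference it called 1 higher in Mettl3-KO, against 0.56%, and 1 lower, against 0.785%. In the 12 deep libraries 6 of the 40 rose in Mettl3-KO, against 2.14% of all genes tested. These were Nop2, Heatr1, Noc2l, Ncl, Ftsj3 and Bop1. In the same fit none passed in WT, with 7 of 40 and 10.1% of all genes at an unadjusted p under 0.05. The difference between genotypes passed for none, with 10 of 40 and 16.3% of all genes at an unadjusted p under 0.05, so a faster rise in Mettl3-KO is not shown.

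Nop2 rose by 0.16 log2 per hour in the deep Mettl3-KO libraries (SE 0.03, edgeR adjusted p = 0.00359), with a difference from WT of 0.16 (SE 0.04, edgeR adjusted p = 0.0838). Heatr1, a scaffold of the small subunit processome, was at 61.1 and 133 CPM at 0 h in Mettl3-KO, 81.7 and 75.1 at 1 h, 121 and 55.9 at 3 h, and 209.7 and 212 at 8 h. In WT it was at 111 CPM at 0 h, 124 and 64.1 at 1 h, 94.8 at 3 h, and 143 and 164 at 8 h. At 8 h both Mettl3-KO libraries were above both WT libraries, and at 1 h both were below the deep WT library. Its rise in Mettl3-KO was 0.16 per hour (SE 0.03, edgeR adjusted p = 0.0134), and the WT estimate was 0.06 (SE 0.04).

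Ncl was at 2137 and 2416 CPM at 0 h in Mettl3-KO, 2704 and 2654 at 1 h, 3232 and 2259 at 3 h, and 3975 and 4120.0 at 8 h. In WT it lay between 1923 and 2471 CPM, with 2455 and 2467 at 8 h. At 0 h the genotypes were alike within the range of the replicates, and at 8 h the Mettl3-KO libraries were far above WT. The rise was 0.10 per hour (SE 0.02, edgeR adjusted p = 0.0339). Rrp9, a U3 snoRNP protein, was at 46.4 and 111 CPM at 0 h in Mettl3-KO, 70.8 and 38.7 at 1 h, 93.2 and 53.0 at 3 h, and 150.2 and 202 at 8 h. Its slope of 0.17 per hour (SE 0.05, edgeR adjusted p = 0.0583) did not pass. Nop56 had the smallest p in WT, at 0.10 per hour (SE 0.03, edgeR adjusted p = 1) in 14 libraries, from 448 CPM at 0 h to 645 and 637 at 8 h. Of the 145 other genes, 12 rose in the deep Mettl3-KO libraries, among them Bms1, Nsun5 and Nop9, against 2.14% of all genes tested. None rose in WT, where none of all genes tested passed in that fit.

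**Figure D3:**
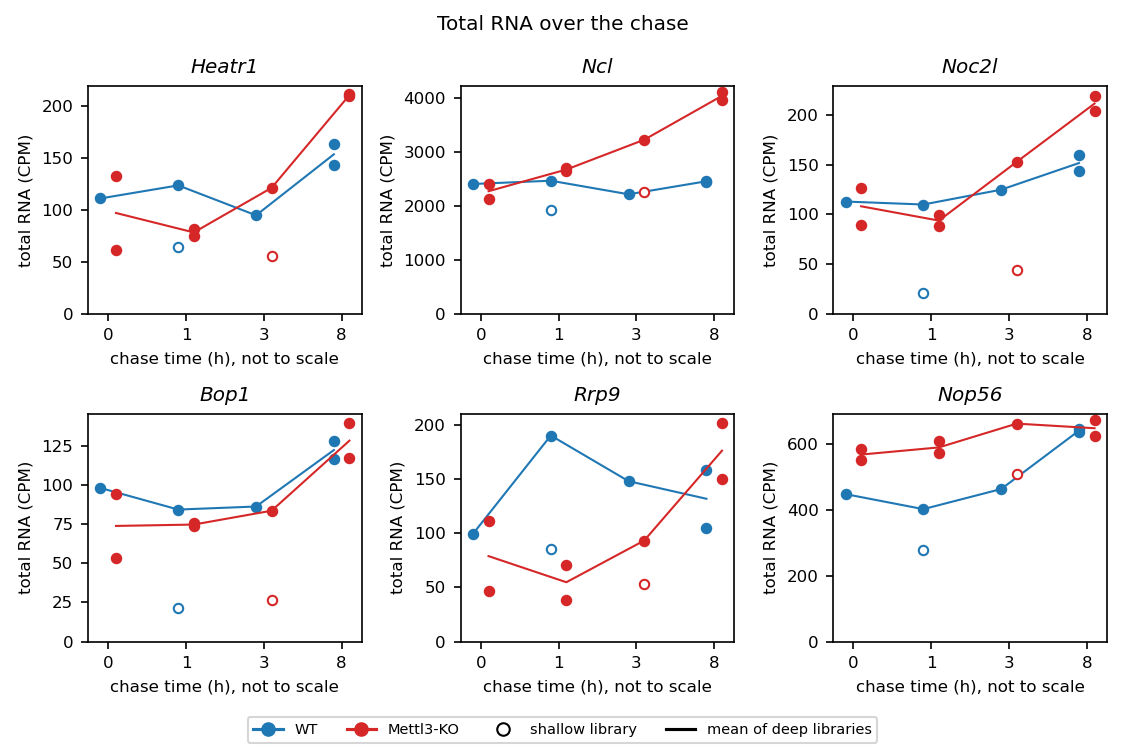
Total RNA in CPM (y axis, from 0) by chase time in hours (x axis, not to scale) for Heatr1, Ncl, Noc2l, Bop1, Rrp9 and Nop56, with 1 point per library, open points for the shallow libraries and lines through the means of the deep ones. Ncl in Mettl3-KO ends at 3975 and 4120.0 CPM, above every WT library, while Bop1 ends at 139.8 and 117 CPM in Mettl3-KO and 117 and 128 in WT.

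The labelled share of a gene is its conversion count as a percent of its total count, which compares label within a gene whatever its level. The sources used here do not state if conversions are counted per read or per base, so the shares are relative measures. All 14 libraries had S4U, so T>C conversions from other sources could not be measured, and none were subtracted here. Their part in the low shares at 8 h, and in the genotype differences of loss, was not tested. Over the 40 genes together the share in WT was 43.3% at 0 h, 32.6% and 12.3% at 1 h, 22.5% at 3 h, and 3.48% and 3.08% at 8 h. In Mettl3-KO it was 27.1% and 28.4% at 0 h, 26.7% and 28.3% at 1 h, 19.3% and 5.79% at 3 h, and 4.91% and 5.15% at 8 h. The low values at 1 h in WT and at 3 h in Mettl3-KO are those of the shallow libraries. The exact binomial 95% interval, which covers counting error only, was 43.1% to 43.5% for WT at 0 h and 9.06% to 16.2% for the shallow WT library. The summed share in Mettl3-KO thus began lower than in WT and ended higher. The share over all genes crossed too, from 39.4% at 0 h in WT and 26.1% and 26.6% in Mettl3-KO to 4.52% and 3.72% in WT and 4.90% and 4.97% in Mettl3-KO at 8 h. The median share of the 40 genes at 8 h overlapped between genotypes, at 2.73% and 2.42% in WT and 2.47% and 2.78% in Mettl3-KO. Without Ncl and Npm1 the shares at 8 h were 2.98% and 2.59% in WT and 3.04% and 3.28% in Mettl3-KO.

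At 0 h the share was lower in Mettl3-KO, by the mean of its 2 libraries, than in the WT library for all 40 genes. The ratio of Mettl3-KO to WT had a median of 0.668 over the genes, from 0.422 (Wdr43) to 0.930 (Noc3l), and was 0.668 for all counts of these libraries, so the 40 genes stood with the whole library. With 1 WT library at 0 h this ratio has no spread in WT. In WT the share ran from 14.2% (Tcof1) to 61.7% (Rrs1) at 0 h. The order of the genes was alike in both genotypes, with a Spearman rho of 0.91 across the 40 genes, which share their libraries and are not independent replicates.

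Labelled RNA per unit of total RNA at 0 h, fitted over all times, was lower in Mettl3-KO for 1 of the 40 genes, Rrp9, and higher for none, while 6.52% of 12678 genes tested were lower. The log2 difference of Rrp9 was -1.74 (SE 0.50, edgeR adjusted p = 0.0144). With the gene's own total count as the scale it was -0.54 (SE 0.38, edgeR adjusted p = 0.719), and the call was also lost without Mettl3-KO 0 h replicate 1, WT 1 h replicate 1 or WT 3 h replicate 1 (adjusted p = 0.0507 to 0.198 in edgeR). Its labelled shares were 43.7% in WT at 0 h and 23.5% and 24.6% in Mettl3-KO. The next genes by p were Rrp1 (-0.93), Mrto4 (0.82), Noc2l (-0.81) and Pes1 (-0.78), none past the threshold. Mrto4, with a positive estimate on the scale of total RNA, was at -0.81 with its own total count as the scale. Over the 40 genes the median was -0.41 and over all genes -0.37. It was -0.26 without WT 0 h replicate 1, -0.23 without WT 3 h replicate 1, and between -0.52 and -0.28 without any other 1 library.

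Label was lost over the chase for 37 of the 40 genes in each genotype, against a background in WT and Mettl3-KO of 91.3% and 88.4% of all genes tested. The genes that did not pass were Nolc1, Tcof1 and Fbl in WT and Ncl, Tcof1 and Fbl in Mettl3-KO. In the deep libraries 39 passed in each genotype, and with the gene's own total count as the scale all 40 passed in both. The median slope was -0.51 log2 per hour in WT (all genes -0.55) and -0.39 in Mettl3-KO (all genes -0.47). These slopes give median half-lives of 1.95 h for WT and, for Mettl3-KO, of 2.56 h, against 1.81 h and 2.12 h over all genes. They carry no correction for cell division or for T>C conversions from sources other than S4U. In WT 38 of the 40 genes had a half-life under 3 h, against 87.4% of all genes, and in Mettl3-KO 27 did, against 75.8%. With the gene's own total count as the scale 33 of the 40 were under 3 h in Mettl3-KO, against 76.9%, and their median there was 2.13 h, as it was over all genes. The shortest in both genotypes was that of Nat10, an acetyltransferase of ribosomal RNA, with 1.34 h for WT and, for Mettl3-KO, 1.61 h.

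Fbl and Nolc1 had the highest labelled shares at 8 h in WT. The WT 8 h libraries held 401 and 96 total counts of Fbl. Fbl was at 15.5% and 15.6% in WT and at 14.5% and 14.7% in Mettl3-KO, from 46.9% at 0 h in WT and 36.2% and 29.7% in Mettl3-KO. Nolc1 was at 51.7% in WT at 0 h and 23.2% and 20.3% at 8 h, and in Mettl3-KO at 40.04% and 44.5% at 0 h and 9.16% and 10.3% at 8 h. Nolc1 thus ended lower in Mettl3-KO, but the difference in its loss rate was -0.13 log2 per hour (SE 0.10, edgeR adjusted p = 0.51). Npm1 was at 7.36% and 7.37% in WT and at 5.70% and 6.40% in Mettl3-KO at 8 h.

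The loss rate differed between genotypes for 1 of the 40 genes, Nop10, whose label was lost more slowly in Mettl3-KO, and none was lost faster. Over all genes 2.26% were slower, so 1 of 40 is near the background. At an unadjusted p under 0.05, 7 of the 40 differed in edgeR, close to the 18.2% of all genes. DESeq2 called 5 slower, against 3.9% of all genes, and 0 faster. The estimates were above 0, the slower side, for 33 of the 40 genes, as for 68.4% of all genes, with a median of 0.10 log2 per hour against 0.09 over all genes. The median was 0.05 without WT 8 h replicate 2, and between 0.08 and 0.14 without any other 1 library. In the deep libraries 6 of the 40 were slower (Nop10, Ncl, Nhp2, Nip7, Mrto4 and Gar1), against 5.5% of all genes. For Gar1 the labelled shares at 8 h overlapped, at 4.99% and 4.38% in Mettl3-KO and 2.67% and 5.47% in WT. Total RNA of Gar1 was at 43.2 CPM in WT 8 h replicate 2 and at 120 to 194 in the other deep WT libraries. With the gene's own total count as the scale, which sets aside any change of total RNA over the chase, 3 were slower (Ncl, Nop10 and Mrto4), against 3.51% of all genes. On that scale 26 of the 40 estimates were above 0, against 70.4% of all genes, and the median was 0.05 against 0.09 over all genes. In the deep fit and in that on the own total count, the genes called other than Ncl were box H/ACA or large subunit genes. No small subunit processome, box C/D or RNA polymerase I gene passed there. The median difference in the deep fit was 0.12 log2 per hour for both large subunit assembly and the small subunit processome. The calls therefore do not set these groups apart. In the same fit the median was 0.26 for box H/ACA, 0.03 for box C/D and 0.01 for RNA polymerase I genes. Of the 145 other ribosome biogenesis genes 2 were slower in 14 libraries, Polr1d (0.43) and Pop5 (0.395), against 2.26% of all genes. In the deep ones 9 were slower, against 5.5%.

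The labelled share of Nop10 in WT was 54.6% at 0 h, 42.0% and 30% at 1 h, 31.2% at 3 h, and 3.01% and 3.13% at 8 h. In Mettl3-KO it was 38.2% and 36.5% at 0 h, 37.0% and 38.2% at 1 h, 27.2% and 17.7% at 3 h, and 8.92% and 9.87% at 8 h. WT began above Mettl3-KO and ended below it, and the replicates at 0 h and 8 h do not overlap. Its WT half-life of 1.77 h compares with 5.05 h for Mettl3-KO, and the slopes differed by 0.37 log2 per hour (SE 0.10, edgeR adjusted p = 0.0359). The call was lost in 9 of 14 fits that left out 1 library (any of both 8 h libraries of either genotype, WT 0 h replicate 1, both Mettl3-KO 0 h libraries, WT 1 h replicate 1 or Mettl3-KO 1 h replicate 1), with differences of 0.33 to 0.41 over the 14.

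Ncl was at 44.6% in WT at 0 h, 31.1% and 11.1% at 1 h, 25.0% at 3 h, and 3.83% and 2.95% at 8 h. In Mettl3-KO it was at 23.9% and 27.9% at 0 h, 23.7% and 21.2% at 1 h, 21.4% and 13.3% at 3 h, and 9.13% and 9.23% at 8 h. The difference in loss rate was 0.34 (SE 0.10, edgeR adjusted p = 0.0552), 0.38 in the deep libraries (SE 0.06, edgeR adjusted p = 6.13e-05) and 0.26 with its own total count as the scale (SE 0.06, edgeR adjusted p = 0.00496). Its half-life in Mettl3-KO was 11.1 h on the scale of total RNA and 5.37 h on its own total count, against 2.345 h and 2.26 h in WT. The total RNA of Ncl rose in Mettl3-KO over the same hours, as given above.

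Nhp2, the box H/ACA partner of Nop10, was at 33.5% in WT at 0 h and 3.14% and 1.19% at 8 h, and in Mettl3-KO at 20.04% and 21.6% at 0 h and 5.32% and 5.55% at 8 h. Nip7, a large subunit factor, was at 48.6% in WT at 0 h and 2.31% and 2.70% at 8 h, and in Mettl3-KO at 35.9% and 35.3% at 0 h and 5.98% and 6.58% at 8 h. Both cross in the same way as Nop10. Their differences were 0.31 (SE 0.10, edgeR adjusted p = 0.0759) and 0.31 (SE 0.11, edgeR adjusted p = 0.0815), and 0.32 for both in the deep libraries (edgeR adjusted p = 0.0076 for Nhp2 and 0.0135 for Nip7). Mrto4 was at 41.8% in WT at 0 h and 1.83% and 3.321% at 8 h, and in Mettl3-KO at 25.7% and 27.6% at 0 h and 6.94% and 6.06% at 8 h, with a difference of 0.26 (SE 0.10, edgeR adjusted p = 0.144). Of these 5, Mrto4 and Nop10 were also higher in total RNA, while Nip7 and Nhp2 were not.

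**Figure D4:**
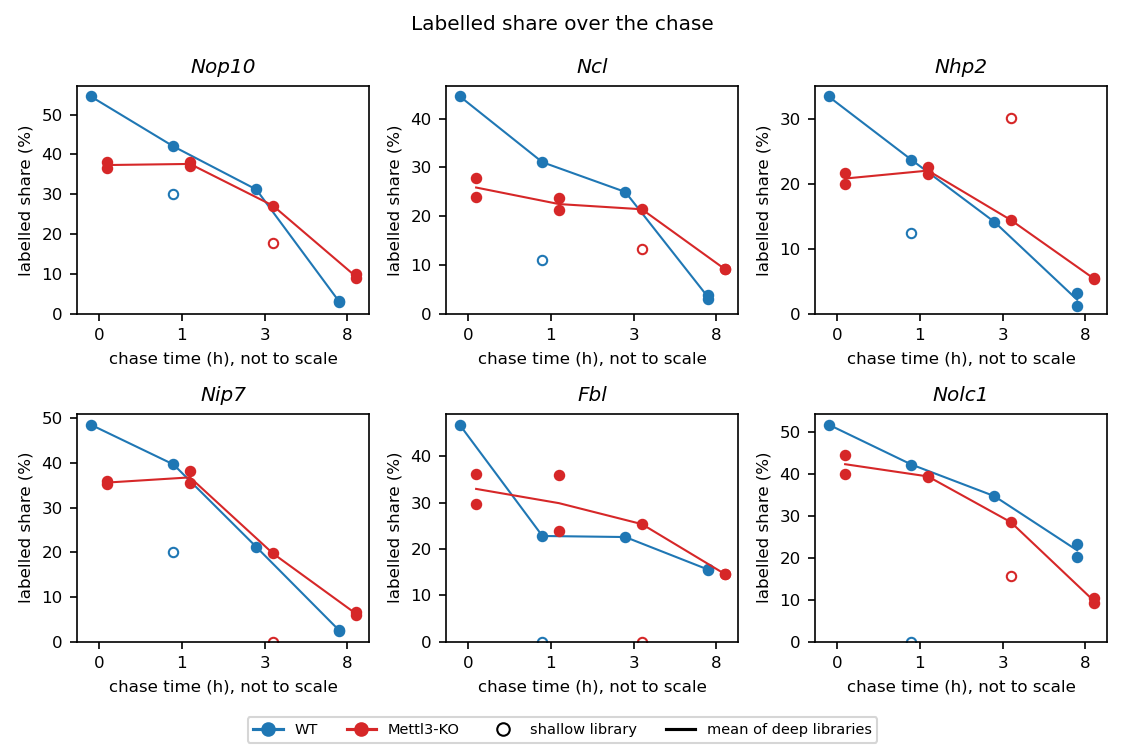
Labelled share in percent (y axis, from 0) by chase time in hours (x axis, not to scale) for Nop10, Ncl, Nhp2, Nip7, Fbl and Nolc1, with 1 point per library, open points for the shallow libraries and lines through the means of the deep ones. For Nop10, Ncl, Nhp2 and Nip7 WT starts above Mettl3-KO and ends below it, Fbl ends at about the same share in both, and Nolc1 ends at 23.2% and 20.3% in WT and 9.16% and 10.3% in Mettl3-KO.

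At 8 h both Mettl3-KO libraries had a higher share than both WT libraries for 11 of the 40 genes, against 30.6% of the 8968 genes with at least 50 counts in each of these libraries. Both were lower for 10 of the 40, against 15% of these genes, and 19 of the 40 overlapped. The 11 were Ncl, Nop16, Nop10, Mrto4, Polr1b, Rrp12, Dkc1, Utp3, Nat10, Nhp2 and Nip7. Of the 6 genes higher in total RNA, 4 are among them, and Nop2 (1.88% and 1.48% in Mettl3-KO, 3.30% and 1.41% in WT) and Ftsj3 (2.10% and 3.03%, 1.73% and 3.47%) are not.

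**Figure D5:**
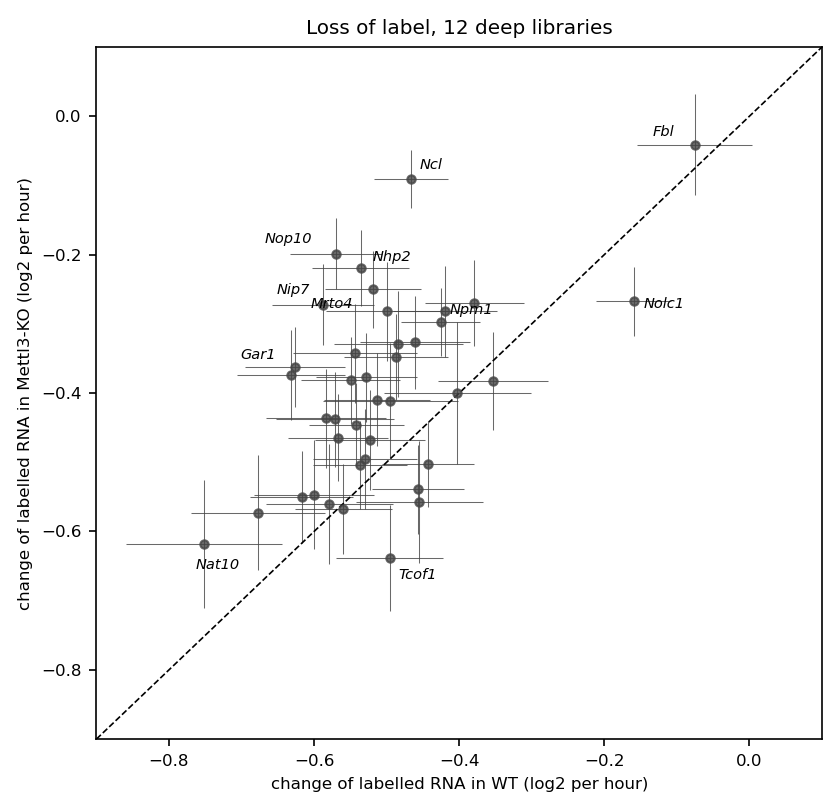
Change of labelled RNA in log2 per hour over the 12 deep libraries, WT on the x axis and Mettl3-KO on the y axis, with 1 point for each of the 40 genes, SE bars and a dashed line of equal loss. Points above the line lost label more slowly in Mettl3-KO, and Ncl, Nop10, Nhp2, Nip7, Mrto4 and Gar1 passed the test of the difference while Nolc1, below the line, did not.

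The authors' deposited table of half-lives, which gives no unit in its header, lists 23 of the 40 genes among 6984. In the authors' deposited table all 23 had a longer half-life in Mettl3-KO, as did 83.4% of the genes listed. In the authors' deposited table the medians of the 23 were 1.80 in WT and 3.501 in Mettl3-KO, and those of all genes listed were 1.69 and 2.52. The authors' deposited table gives Nop16 at 1.503 and 8.89, Rrp9 at 2.16 and 10.1, Nop2 at 1.76 and 6.72, and Npm1 at 2.28 and 7.03, WT before Mettl3-KO. These were picked as the longest of the 23 in Mettl3-KO. In the authors' deposited table the others of the 23 ran from 2.33 (Nat10) to 6.39 (Utp3) in Mettl3-KO. Nop10, Ncl, Nhp2, Nip7 and Mrto4 are not among the 23. For Nop16 the slopes fitted here differed between genotypes by 0.25 log2 per hour (SE 0.11, edgeR adjusted p = 0.19), and by 0.26 (SE 0.09, edgeR adjusted p = 0.0713) in the deep libraries. For Rrp9, Nop2 and Npm1 they differed by 0.18 (SE 0.11, edgeR adjusted p = 0.403), 0.15 (SE 0.11, edgeR adjusted p = 0.4663) and 0.10 (SE 0.10, edgeR adjusted p = 0.659) log2 per hour. As half-lives in 14 libraries, WT before Mettl3-KO, the slopes fitted here give 1.61 and 2.68 h for Nop16, 1.88 and 2.63 h for Nop2, and 2.52 and 3.37 h for Npm1. Both sets of values come from the same libraries.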

How the data were processed

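Total RNA and T>C conversions were counted per gene in 14 libraries of SLAM-seq, a 3' end assay of S4U-labelled RNA. The authors deposited whole-number counts per gene symbol (total and conversion), log2 values normalized by the authors, and half-lives with correlation scores fitted by the authors, with no unit per the file headers. The genome build mm10, edgeR 3.32.1, Subread 1.5.0 (featureCounts) and Trim Galore 0.4.0 are listed in the submitters' processing notes. For the aligner and for how conversions were called, the method is not given in the sources used here. The deposited log2 values follow the conversion counts (Spearman rho across genes at least 0.997 in each library) more closely than the total counts (at most 0.985).

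Computed here with edgeR 4.0.16 (R 4.3.3, quasi-likelihood, robust, TMM): total counts of 14641 genes (10 or more counts in 6 or more libraries), modelled on genotype and a term for each collection time, then on genotype, hours and their product. Conversion counts of 12678 genes (at least 10 in at least 3 libraries) were fitted with the TMM-scaled total count as offset. SE is the log2 effect over the square root of F. Half-life is 1 over the slope. Entries with no gene name (at most 0.0312% of counts) were left out. All libraries share each fit, as WT has 1 library at 0 h and at 3 h. Groups and replicate numbers are from the titles. Labels do not say that replicates are separate cultures, so p-values measure the spread between samples, which may be technical. Models were checked on simulated data.

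Members, lists, roles and alternatives were chosen with earlier results of these data known. The rule names every gene of the 40 called in total RNA, the 5 with the smallest p for the loss rate and for labelled RNA at 0 h, the 4 for total RNA per hour, and the 2 with the highest mean CPM per role. Alternatives were DESeq2 1.42.0, limma 3.58.1, other filters, offsets and library subsets.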

Additional observations from a re-analysis of the deposited data

Results flagged for a closer look

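A library far from the others of its genotype was found in 11 of 80 sets of total RNA values (the 40 genes in WT and in Mettl3-KO), where chance gives about 1 in 20. In Mettl3-KO 3 h replicate 2, Tcof1 (7556 CPM), Wdr43 (6310.3), Dkc1 (4649.5) and Rrp1 (383) were far above the other Mettl3-KO libraries. The labelled shares of Tcof1, Wdr43 and Dkc1 there were 4.05%, 0.560% and 1.46%. In WT 1 h replicate 2, Nolc1 (149.6 CPM), Pes1 (42.7), Noc2l (21.4), Pa2g4 (299) and Wdr12 (0) were below the other WT libraries. That library has 49154 counts, and 3 counts, the most that a count of 0 allows, would be 64.1 CPM. In deep libraries, Utp3 was high in Mettl3-KO 1 h replicate 2 (187 CPM) and Nip7 in WT 0 h (160.4 CPM). The loss of label of Nop10 differed between the genotypes by a test of the difference itself, by 0.37 log2 per hour.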

How the results depend on the processing

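Without the 2 shallow libraries, genes of the 40 called were 11 higher and 1 lower in total RNA, 6 in total RNA per hour in Mettl3-KO, and 6 slower in loss rate. DESeq2 called 1 lower in total RNA, 1, 5 and 2 in total RNA per hour in WT, Mettl3-KO and their difference, and 5 slower. With TMM of the conversion counts, which by construction takes out a decline shared by all genes, 1 was called higher and 0 lower in label at 0 h, 0 and 0 fell in WT and Mettl3-KO, 0 were slower, and the medians turned to 0.0116 (label at 0 h), 0.000399 (loss in WT) and 0.0451 (loss in Mettl3-KO). With the own total count as offset, 0 were lower in label at 0 h, 3 were slower, and Mrto4 at 0 h turned to -0.81. The 0 h and 1 h libraries alone gave 0 lower at 0 h, the 1 h and 8 h libraries alone 0 slower, and the stricter filter 2 slower. Limma on the authors' log2 values, added after seeing the data, gave 0 lower at 0 h, 24 falling in Mettl3-KO and 0 slower. Where no cause is named, the cause was not tested. Settings named only in this section have no share of all genes beside them, so their counts are not set against a background. Leaving out each library in turn gave 4 to 10 higher and 0 to 1 lower in total RNA, 0 to 3 in total RNA per hour in Mettl3-KO, 0 to 1 lower at 0 h, 37 to 39 falling in WT, 35 to 38 in Mettl3-KO, and 0 to 4 slower. The highest count, 10, came without Mettl3-KO 3 h replicate 2. With the replicate block 7 genes were higher in total RNA, with Gar1 added (log2 change 1.11), and no other count moved. The numbers share no stated culture, and deviations of same-numbered libraries correlated at -0.08 to 0.30 over 15 pairs of groups, 2 of them above 0.1, so they were not taken to pair. Limma on the deposited log2 values was planned for total RNA and not run, since those values follow the conversion counts. Depth limits WT at 1 h and Mettl3-KO at 3 h to 1 deep library each, as WT has at 0 h and 3 h.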
